A study of Homo sapiens with 2 samples.

Results

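The genes described here are MYH11, DES, ACTG2, TAGLN, MYL9, SYNPO2 and SYNM, which encode contractile and filament proteins of smooth muscle. They were selected on their values in this comparison, because several of them had the largest decreases after NAT10 knockout, so their fold changes are given as a description and were not tested. They hold 16 of the 647 peaks and 7 of the 490 genes in the authors' table. The study used acRIP-seq, in which an antibody against N4-acetylcytidine (ac4C) captures fragments of total RNA for sequencing, with input RNA for reference. It compared A549, a human lung adenocarcinoma epithelial cell line, without an edit (WT, labelled control) with A549 carrying a CRISPR/Cas9 knockout of NAT10 (NAT10-KO), both kept in medium with serum. The knockout line is 1 single-cell clone obtained after puromycin selection with a pair of guide RNAs against the fifth exon. Each condition had 1 library, so no value has a replicate check.

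NAT10 is the enzyme that acetylates cytidine in RNA. In smooth muscle, myosin filaments pull on actin filaments that are anchored at dense bodies, and intermediate filaments link these anchor points into a network. MYH11 is the myosin heavy chain of smooth muscle, ACTG2 the gamma actin of enteric smooth muscle, and MYL9 a regulatory light chain of myosin. TAGLN (transgelin) binds actin. DES (desmin) is the main intermediate filament protein of muscle, SYNM (synemin) a filament protein that joins it, and SYNPO2 an actin-bundling protein. MYH11, DES and ACTG2 are textbook markers of muscle and are not typical products of lung epithelium, whereas TAGLN and MYL9 are also found in other cells that form stress fibres.

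For each peak the authors' table gives 1 fold enrichment over input and 1 log2 fold change for the comparison, and no value for a single library. The direction of the fold change is not written in the file. It is read as NAT10-KO over WT, since the study treats negative values as lower after knockout. In these bulk libraries, fewer cells of a type and less RNA per cell cannot be told apart, and neither can less RNA and less ac4C on the same RNA. A difference between the cells from which the clone grew and the WT culture cannot be told apart from the knockout.

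All 16 peaks of the smooth muscle genes had a log2 fold change under 0, against 46.7% of all listed peaks. Under -1, the size called lower here, were 15 of the 16 peaks, on 6 of the 7 genes, against 18.7% of all listed peaks. These shares follow from how the genes were chosen. The median log2 fold change was -4.51, and the values ran from -9.47 to -0.33. Over all listed peaks the median was 0.05. The authors' p of the difference was under 0.05 at 8 of the 16 peaks, beside 53.6% of all listed peaks. Both a log2 fold change under -1 and such a p were found at 8 of the 16, against 11.9% of all listed peaks. How this p was computed is not given in the sources used here. With 1 library per condition, it cannot measure the spread between replicates of a condition. The peaks that passed it lay on MYH11, DES, ACTG2 and TAGLN, with log2 fold changes from -9.47 to -4.85, and the other 8 peaks lay between -4.17 and -0.33.

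**Figure D1:**
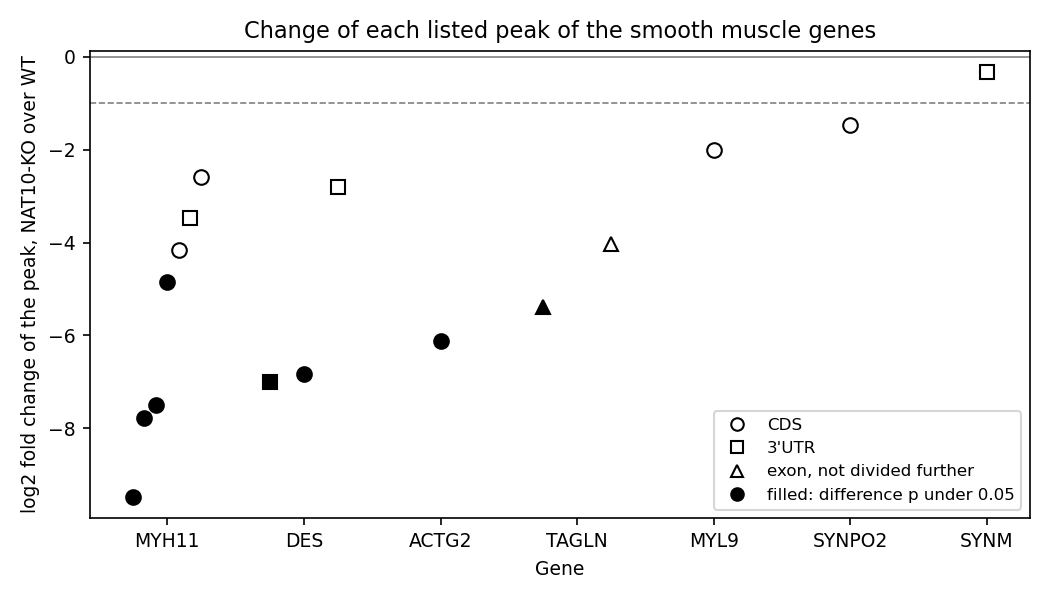
Log2 fold change (NAT10-KO over WT, y axis) of each of the 16 listed peaks, by gene (x axis). Each point is 1 peak, its shape gives the annotated region, filled points have a difference p under 0.05, and the dashed line marks -1; the MYH11 peaks spread from -9.47 to -2.58, and the single SYNM peak is the only point above the dashed line.

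MYH11 (ENSG00000133392, minus strand of chromosome 16, positions 15703135 to 15857028 in GRCh38) carried 7 peaks made of 20 exon blocks, which together covered 2645 bases of exon. A block is the stretch of a peak within 1 exon, and the introns between blocks are not part of the peak. Of these peaks, 6 were annotated to the CDS and 1 to the 3'UTR. The peak nearest the 5' end, chr16:15786652-15856943, consisted of 5 blocks with 631 bases and began 85 bases from the start of the gene. Its fold enrichment was 33.7, and its log2 fold change of -9.47 was the lowest of the whole table.

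Further along the gene, the CDS peaks at chr16:15757920-15760576 and chr16:15753446-15756398 had log2 fold changes of -4.17 and -2.58, with difference p of 0.186 and 0.417. The next CDS peaks towards the 3' end had lower values. These were -4.85 at chr16:15721586-15724799, -7.50 at chr16:15719634-15721166 and -7.77 at chr16:15714950-15717288. The last of these had a fold enrichment of 135, the highest of the 16 peaks. The 3'UTR peak, chr16:15703502-15703712, lay 367 bases from the 3' end of the gene, with a log2 fold change of -3.46 and a difference p of 0.275. Values under -7 were therefore found at the peak nearest the 5' end and at 2 peaks towards the 3' end. The peaks centred at 63.5% and 66.3% of the gene's length, counted from its 5' end, had values of -4.17 and -2.58. Whether the change differs along the gene was not tested, and the depth behind each peak is unknown.

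**Figure D2:**
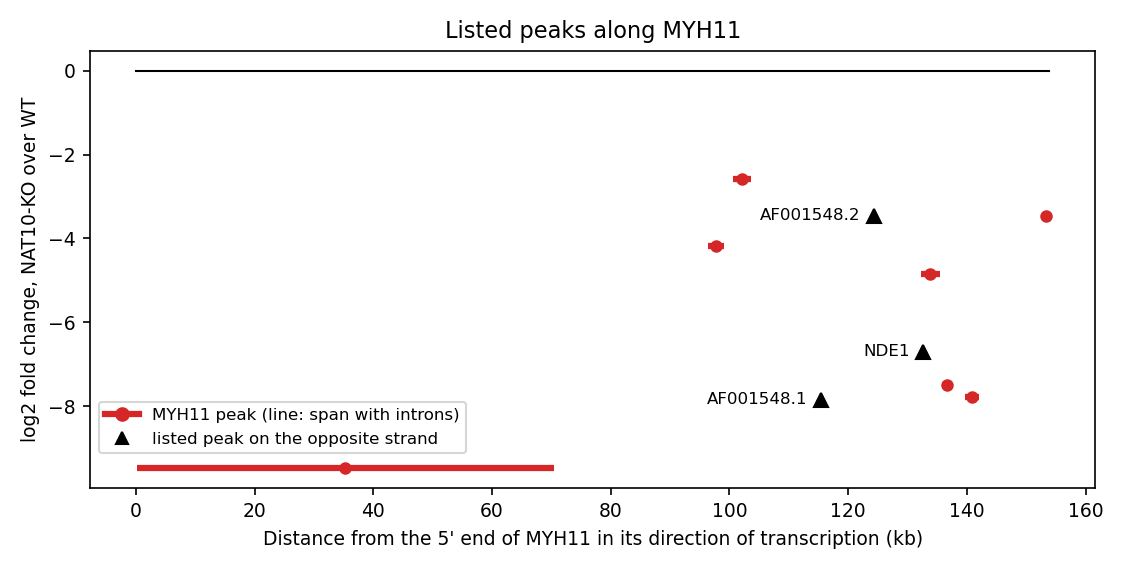
Listed peaks along MYH11, by distance in kb from its 5' end in the direction of transcription (x axis) and log2 fold change, NAT10-KO over WT (y axis). Red points and lines are the 7 MYH11 peaks with their spans, introns included, and black triangles are the 3 listed peaks on the opposite strand, which lie between -7.85 and -3.46.

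Another 3 listed peaks lay within the bounds of MYH11 on the opposite strand, and all were below 0. NDE1, which encodes a protein of the centrosome and the mitotic spindle, had a 3'UTR peak at chr16:15724286-15724556 at a fold enrichment of 7.27, where the log2 fold change was -6.70. It shares 124 bases with the blocks of the MYH11 peak at chr16:15721586-15724799, whose fold enrichment was 6.94. The antisense genes AF001548.1 and AF001548.2 had log2 fold changes of -7.85 and -3.46, at fold enrichments of 14.5 and 6.80. Whether the counting used strand is not given in the sources used here, so reads from MYH11 and from these genes cannot be told apart.

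DES (ENSG00000175084, chromosome 2, plus strand) carried 3 peaks. The CDS peak, chr2:219418792-219421546, joined 6 blocks with 951 bases, the largest number of blocks among the 16 peaks, and was enriched 35.5-fold, with a log2 fold change of -6.83. A 3'UTR peak at chr2:219426353-219426709, which ended 25 bases before the 3' end of the gene, had a nearly equal log2 fold change of -7.00 at a fold enrichment of 15.1. The neighbouring 3'UTR peak, chr2:219425997-219426146, had almost the same enrichment, 16-fold, but a log2 fold change of -2.81 with a difference p of 0.378. The peaks of a single gene therefore spanned 4.19 on the log2 scale in DES and 6.89 in MYH11. The smallest decrease of each span was at a peak with a high difference p, 0.378 in DES and 0.417 in MYH11. The depth behind these peaks is unknown, and whether the change differs between peaks of a gene was not tested.

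ACTG2 (ENSG00000163017) had 1 CDS peak of 3 blocks at chr2:73914862-73919478 on the plus strand, with a fold enrichment of 11.5. Its log2 fold change was -6.11, with a difference p of 0.00479. The non-muscle actin ACTG1 also had a listed peak, in its 3'UTR, with a log2 fold change of 0.30 at a fold enrichment of 1.80. Actin genes are close in coding sequence, and how reads that match several of them were assigned is not given in the sources used here.

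The regulatory sequence of ACTG2 is shown because CArG boxes, the sites of serum response factor, are known from the promoters of smooth muscle genes. The sequence is that of RefSeq in GRCh38.p14, plus strand, at chr2:73892878-73892964, with CArG boxes in capitals:

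ACTG2: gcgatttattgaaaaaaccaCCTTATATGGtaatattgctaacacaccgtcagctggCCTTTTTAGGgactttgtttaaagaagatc

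The boxes begin 110 and 73 bases before the annotated start of ACTG2. The box was searched by its usual form, which reads the same on both strands, from 250 bases before to 50 after each annotated start. It occurred in 1.29% of 35116 promoters, and at least 2 boxes occurred in 0.0313%. Promoter sequence was at hand for 3 of the genes, and the 3 promoters of SYNPO2 and the 1 of SYNM held no match. A match is a description of these letters, and binding was not measured.

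TAGLN (ENSG00000149591, chromosome 11, plus strand) had 2 neighbouring peaks annotated only as exon. The one at chr11:117203020-117203289 was enriched 40.8-fold and had a log2 fold change of -5.39, with a difference p of 0.0288 and an adjusted p of 0.055. The one at chr11:117203409-117203975 was enriched 26.6-fold and had a log2 fold change of -4.04, with a difference p of 0.0537. Both passed the authors' test of enrichment, with adjusted p of enrichment of 2.75e-07 and 2.24e-07.

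MYL9 (ENSG00000101335) had 1 CDS peak of 119 bases at chr20:36549132-36549250, the shortest of the 16. Its fold enrichment was 12.4 and its log2 fold change -2, with a difference p of 0.524. SYNPO2 (ENSG00000172403) had a CDS peak at chr4:119031595-119031775 with a log2 fold change of -1.46 at a fold enrichment of 6.51. SYNM (ENSG00000182253) had a 3'UTR peak at chr15:99135174-99135353 with the lowest enrichment of the 16, 3.42, and the smallest change, -0.33. None of these 3 genes had a difference p under 0.05. The log2 fold changes of all 3 lay above those of every MYH11, DES, ACTG2 and TAGLN peak, while the enrichment of SYNPO2 was close to the 6.94 of the least enriched MYH11 peak.

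The 16 peaks had high fold enrichments over input. Their median fold enrichment was 20.4, against 2.22 for the other 631 peaks, and 13 of the 16 reached 10-fold, against 8.40% of the others. These values were known when the genes were chosen and were not tested. A fold enrichment is a ratio to input, and the input level of these RNAs was not analysed here. Strong capture and few input reads therefore cannot be told apart behind a high ratio. After the authors' adjustment, 12 of the 16 peaks had an enrichment p under 0.05, a share of 75.0% beside 75.8% of the others. The exceptions were 1 peak each of MYH11 (0.0589), DES (0.49), MYL9 (1) and SYNPO2 (0.283).

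These 4 peaks are also those whose enrichment and p were identical, to the digits given, to those of other peaks. The MYL9 peak shared its values of 12.4 and 0.0038 with 8 peaks of other genes, of which 3 were below 0 and 5 above, from -2.58 to 2.81. The DES peak shared 16 and 0.00059 with 6 peaks of other genes, of which 2 were below 0 and 4 above. The MYH11 peak shared its values with 3 peaks and the SYNPO2 peak with 1. Over all listed peaks, 11.4% shared both values with another. At several of the 16 peaks the fold change was also the log2 of a whole number. With a tolerance of 0.005, this held for 5 of the 7 peaks with a ratio between 2 and 20, with WT over NAT10-KO at 18.0, 11.0, 7.01, 5.98 and 4. Among other peaks in that range it held for 36 of 60 with a difference p of 0.05 or more and for 7.10% of those with a smaller p. Read counts were not used here, and the depth behind each peak is unknown.

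**Figure D3:**
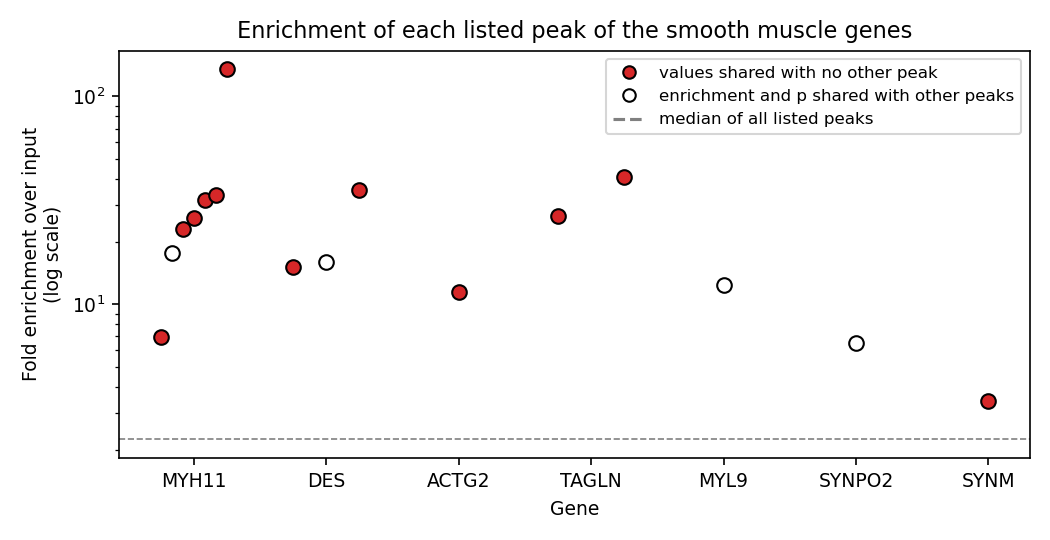
Enrichment over input, as a fold on a log scale (y axis), of each of the 16 listed peaks, by gene (x axis). Each point is 1 peak, open points share their enrichment and p with peaks of other genes, and the dashed line is the median of all listed peaks, 2.24, below which none of the 16 falls.

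The region of the peaks was not used to choose the genes. The CDS held 10 of the 16 peaks (62.5%, against 41.7% of the other peaks), the 3'UTR held 4, and the 2 TAGLN peaks were annotated only as exon. None was in the 5'UTR. More than 1 block was found at 9 of the 16 (56.2%) and at 36.0% of the others, and the median length in exon was 270 bases against 206. Without MYH11, the CDS held 4 of 9 peaks (44.4%) and 3 of 9 (33.3%) had more than 1 block, so both differences from the other peaks rest on MYH11. Within the CDS, the median log2 fold change of the 10 peaks was -5.48, beside -0.10 for 263 other CDS peaks. In the 3'UTR it was -3.14 for the 4 peaks and 0.39 for 210 others. These medians are again of the values on which the genes were chosen. The 9 peaks of several blocks had a median of -6.11 and the 7 of 1 block had -2.81. MYH11 gave 6 of those 9, and the others, on DES, ACTG2 and TAGLN, lay at -6.83, -6.11 and -4.04.

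Elsewhere in the table, high enrichment came with changes in both directions. Among the 53 other peaks with a fold enrichment of at least 10, 27 were below 0, the median log2 fold change was -0.02 and 28.3% were under -1, while the 13 peaks of the smooth muscle genes in that range had a median of -5.39. The most enriched genes outside the smooth muscle genes were LMLN (203), LMLN-AS1 (179), MT-RNR1 (55.2), KRT19 (53.2) and MALAT1 (27.4). At these peaks the log2 fold changes lay between -0.46 and 0.49. The genes closest to the smooth muscle genes by log2 fold change were AF001548.1 (-7.85), NDE1 (-6.70), FOLR1 (-5.04), KAT6A (-4.37) and PDCD6 (-4.32). Of these, FOLR1, the folate receptor of epithelia, had a fold enrichment of 24.8 with 4 blocks in the CDS, and its difference p was 0.11. The enrichments of AF001548.1 (14.5), PDCD6 (12.4) and NDE1 (7.27) also lay within the range of the 16 peaks. That of KAT6A (1.64) lay below it. Of the 10 lowest log2 fold changes in the table, 7 were peaks of the smooth muscle genes and 2 lay opposite MYH11.

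**Figure D4:**
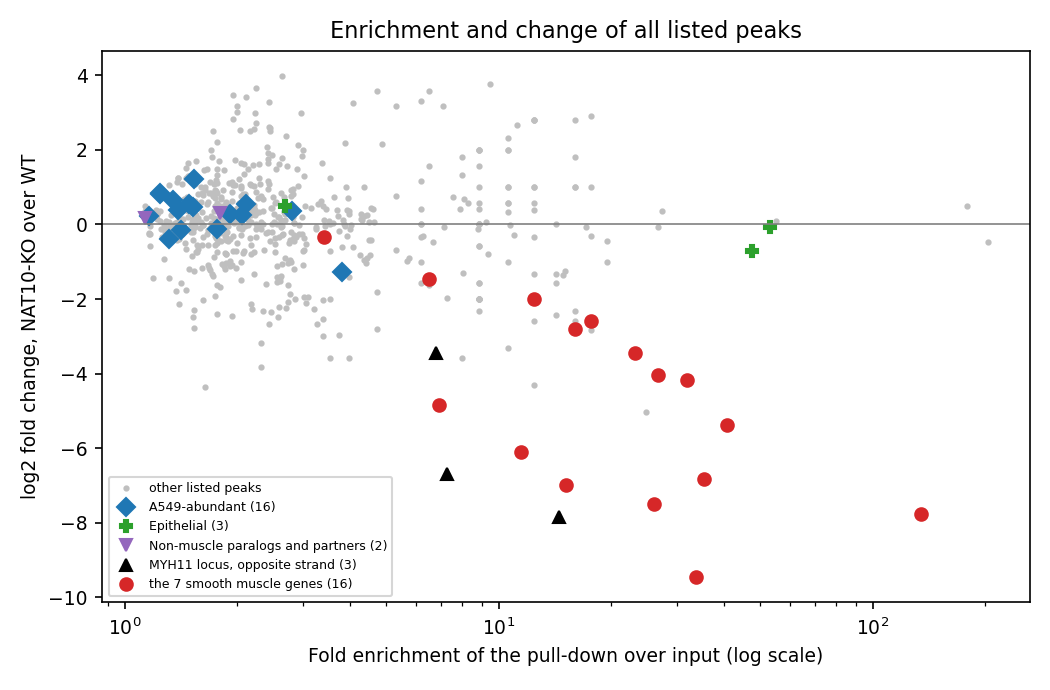
Fold enrichment over input (x axis, log scale) and log2 fold change, NAT10-KO over WT (y axis), of all 647 listed peaks, 1 point each. Red circles are the 16 peaks of the smooth muscle genes, coloured symbols are the marker lists with the number of peaks of each, and black triangles are the peaks opposite MYH11; the A549-abundant genes lie at enrichments of 1.16 to 3.82 around a log2 fold change of 0.38.

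The cell type on the labels was checked against marker lists. Of 14 genes known to be abundant in A549, many of them enzymes of redox metabolism, 10 had a listed peak, with a median log2 fold change of 0.38 over 16 peaks and 1 peak under -1. Of 12 epithelial markers only KRT19, a keratin of simple epithelia, was listed, with 3 peaks at log2 fold changes of 0.50, -0.07 and -0.72. Of the other smooth muscle genes, ACTA2 (smooth muscle alpha actin), CNN1 (calponin), CALD1 (caldesmon) and MYLK (myosin light chain kinase) had no listed peak. Of 19 non-muscle paralogs and partners, ACTG1 and VIM, the intermediate filament protein vimentin, were listed, and VIM had a log2 fold change of 0.17. No peak was listed for any of 18 connective tissue genes, 19 striated muscle genes, 9 endothelial and blood genes or 7 lung epithelial genes. The table lists only called peaks, so a gene without a peak may still be expressed. Whether WT cells made the RNA of the smooth muscle genes or it came from other cells was not tested.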

How the data were processed

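Total RNA of A549 cells was used for acRIP-seq, with 1 WT and 1 NAT10-KO library, grouped by their sample titles. According to the submitters' processing notes, reads were aligned with STAR 2.7.10a to hg38. The peak caller, its version, the use of strand and the pooling of libraries are not given in the sources used here. The authors deposited 1 table of 647 peaks with the p-value of enrichment, the fold enrichment over input as a ratio, the log2 fold change between libraries, and log10 p and adjusted p as a score. These comparison columns hold the authors' own test, and single values were copied from them without a test here. Starts were read as counted from 0 and are given counted from 1.

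Counts, medians and ranges were computed in Python 3.11.15 with numpy 2.4.6, pandas 2.3.3 and matplotlib 3.10.9, and the counting was tested on simulated data. A peak was called lower under a log2 fold change of -1. Gene bounds and promoters came from RefSeq GRCh38.p14, matched by symbol. The members and the marker lists were chosen with earlier results of these data known. Named genes are the 7 members, genes whose peaks overlap theirs, listed paralogs and other smooth muscle genes, and the 5 other genes with the lowest log2 fold change and the 5 with the highest enrichment. A result for another listed gene is not reported here. AF001548.2 was named after its values were seen. Alternatives were other fold and p thresholds, 1 value per gene, and leaving out each gene or overlapping peaks. The depth of the libraries is unknown, so no interval is given.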

Additional observations from a re-analysis of the deposited data

How the results depend on the processing

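Of 34 alternatives, 30 left the count or median within 1.5 times of the value reported, and 7 of the 34 were chosen after seeing the data. Of the 16 peaks, 15 were under -1 by size alone. With the authors' difference p under 0.05 as well, 8 were, and with their adjusted p 7 were, fewer by construction since a criterion was added. With the unadjusted p and no size limit, 8 were lower. The median fold enrichment of 20.4 became 12.4 with 1 value per gene and 15.1 without MYH11. The cause of the move was not tested. The median log2 fold change stayed between -5.75 and -4.04 in its 12 alternatives, and it was -4.04 without MYH11. The search for runs of C-led triplets under the peaks was not run, since the sequence under the peaks was not used here. No paired analysis was possible because WT and NAT10-KO have a single library each. The depth behind the peaks is unknown, so the precision of their values cannot be given.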
